A study of Mus musculus with 94 samples.

Results

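The tubular cells of the renal cortex were compared between entospletinib- and vehicle-treated mice 14 days after ischemia-reperfusion injury (IRI). The members were the cortical segments of epithelium (PanCK in their label) of both day 14 groups with at least 200000 counts, 8 of the 94 segments deposited and 8 of the 28 cortical tubule segments used. Both groups were male C57BL/6 mice with unilateral IRI. The entospletinib group (IRI_D14_E) received entospletinib, an inhibitor of spleen tyrosine kinase (SYK), and the vehicle group (IRI_D14) received its solvent, in both cases starting before surgery and given repeatedly until day 14. Controls were uninjured kidneys, contralateral by the labels and contralateral or from healthy mice by the methods. Each group had 2 kidney sections, read from the label's prefix, and 2 segments of each section entered the comparison. A further entospletinib segment of section 1 held 77621 counts and was left out.

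The kidney cortex is made up largely of proximal tubules, which reabsorb most of the filtrate and depend on fatty acid oxidation, a demand that makes them vulnerable to ischemia. Surviving tubular cells dedifferentiate and proliferate to replace those lost. Cells that fail to complete this repair remain in a proinflammatory and profibrotic state, in which they attract leukocytes. SYK is known mainly from leukocytes, where it transmits signals of Fc and C-type lectin receptors.

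In digital spatial profiling, an antibody stain outlines the cells of a region, and the barcodes of hybridized probes are released from that outline by light and counted. A segment holds the RNA of the outlined area, not of isolated cells, so fewer cells of a type and less RNA per cell cannot be told apart. The deposited counts carry probe identifiers without gene names. Genes, pathways, and markers of tubular cells could therefore not be looked up, the label of the segments could not be checked against defining markers, and 4 probes are named by identifier alone. In place of markers, probe lists were drawn from the sections of the other groups.

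The vehicle segments held 2355614 to 3218840 counts and the entospletinib segments 4136936 to 7250641, so every entospletinib segment was deeper than every vehicle segment. Segments of 1 section resembled each other most, with a chi-square per degree of freedom of 1.82 to 4.87 over the probes. It was 10.9 to 15.9 between the vehicle sections and 15.6 to 27.7 between the entospletinib sections. Between vehicle and entospletinib segments it was 12.3 to 46.7, the lowest between the sections numbered 1. This measure grows with depth, so the ranges are not on 1 scale. Counts were therefore summed over the segments of a section, and the section was the replicate. Labels do not say in words that the sections of a group came from separate mice, and the p-values measure the spread between sections. Vehicle section 2 stood apart. On the first principal component of the 14 cortical tubule sums, which held 48.4% of the variance, it lay at 87.9, with the other 13 sums between -33.3 and 15.3. The counts of entospletinib against vehicle are also given without it.

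Cortical tubules of entospletinib-treated mice differed from those of vehicle-treated mice mainly by probes with lower levels. Of 20175 probes tested, 68 were called higher and 322 lower, 390 in all (edgeR quasi-likelihood test, n = 2 sections per group). A call required a Benjamini-Hochberg adjusted p below 0.05 together with a log2 fold change beyond 1 in either direction. These were 0.337%, 1.6%, and 1.93% of the probes tested. The median log2 fold change was 1.32 among the probes called higher and -1.49 among those called lower. Falls were also the steeper changes, with 62 of the probes called lower and 7 of those called higher beyond 2 on the log2 scale, and 13 and 1 beyond 3. The median of all probes was 0.29 with upper quartile scaling and 0.07 with TMM scaling, so it moved with the scaling. It also differed by level, as given below. TMM scaling called 34 probes higher and 580 lower. Relative to the median of all probes, 37 were called higher and 402 lower.

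The calls rested on every section. Without vehicle section 2, 3 probes were called higher and 90 lower, and 92 of these 93 were among the 390. Without vehicle section 1 the counts were 4033 and 655, and 387 of the 390 were among them. Without entospletinib section 1 they were 11 and 32, and without entospletinib section 2 they were 36 and 136. In each of these fits the spread of a group left with a lone section was taken from the other groups. The 68 probes lay above vehicle and the 322 below it in each of the 4 pairs of an entospletinib with a vehicle section, which their selection largely fixes. The falls were steeper against vehicle section 2, with medians of -1.84 and -1.76, than against vehicle section 1, with medians of -1.17 and -1.0.

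**Figure D1:**
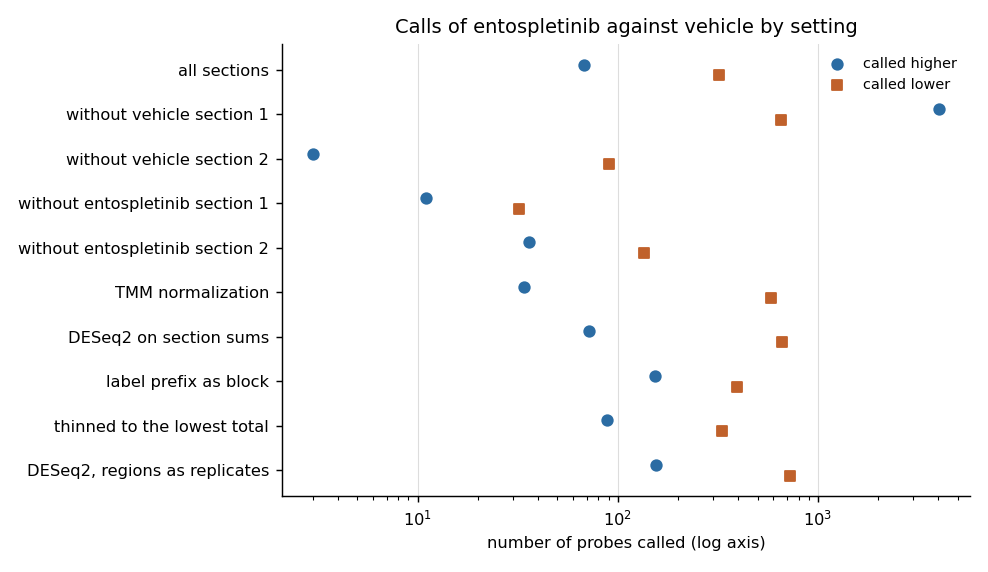
Number of probes called higher (circles) or lower (squares) in entospletinib- than in vehicle-treated cortical tubules on day 14, on a log axis, with all sections, without each section, and with other settings. Lower calls outnumber higher calls in every setting shown except without vehicle section 1, where 4033 were higher and 655 lower.

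The segments were also set side by side, although they are the counts that were summed to make the calls, so that little overlap in called probes follows from their selection. Of the 68 probes called higher, 66 had 4 entospletinib segments above all 4 vehicle segments in CPM, the counts scaled to a common total per segment, and of the 322 called lower, 320 had all 4 below. Among all probes, 4.88% lay apart upward and 14.9% downward. Calls were denser among probes with higher levels, taken as the mean CPM of the day 14 section sums. These sums also made the calls, so high vehicle values move a probe called lower up in level. The 322 had median levels of 56.6 and 94.2 CPM in vehicle and 22.6 and 26.3 CPM with entospletinib, after upper quartile scaling. The density by level was thus partly set by the selection. Below 10 CPM, 3 probes were called higher and 1 lower, of 1729, and from 10 to 30 CPM 15 were called higher (0.141%) and 56 lower (0.526%), of 10651. From 30 to 100 CPM, 36 were called higher (0.573%) and 199 lower (3.16%). From 100 to 300 CPM, 8 were called higher (0.687%) and 52 lower (4.46%). At 300 CPM or more, 6 were called higher (1.75%) and 14 lower (4.09%). From the lowest of these bands to the highest, the median log2 fold change of the probes tested was 0.45, 0.37, 0.03, 0.20, and 0.47.

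**Figure D2:**
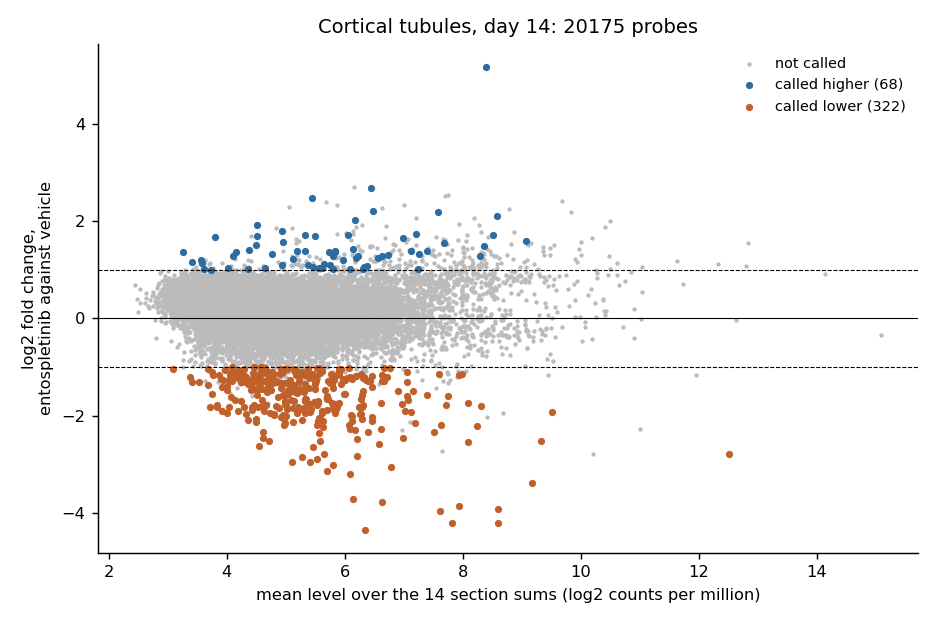
Log2 fold change of entospletinib against vehicle in day 14 cortical tubules against the mean level of each probe over the 14 section sums, in log2 CPM. Each point is a probe, and dashed lines mark a change of 1. The 322 probes called lower reach -4.34, while 1 of the 68 called higher stands alone at 5.16.

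Called probes took up a visible share of all counts. The 322 probes called lower held 4.00% and 3.91% of the counts in the segments of vehicle section 1 and 7.13% and 7.63% in those of vehicle section 2. In entospletinib segments they held 1.19% and 1.11% in section 1 and 1.22% and 1.32% in section 2. These entospletinib values lay within a narrow band close to the control sections, at 1.18% and 1.32%, whereas the vehicle sections differed from each other. The median level of the 322, after upper quartile scaling, was 22.6 and 26.3 CPM with entospletinib and 20.9 and 24.1 CPM in controls. All probes had medians of 26.3 and 21.7 CPM, and 21.1 and 25.4 CPM, in the same sections. The counts precede any background step, and how near these levels lay to background was not tested. The 68 probes called higher held 0.349%, 0.398%, 0.278%, and 0.302% of the counts in the vehicle segments. In entospletinib segments they held 0.902%, 0.933%, 0.853%, and 1.00%, and in the control sections 0.692% and 0.715%. Since these probes were chosen for this difference, their shares describe it and do not test it.

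**Figure D3:**
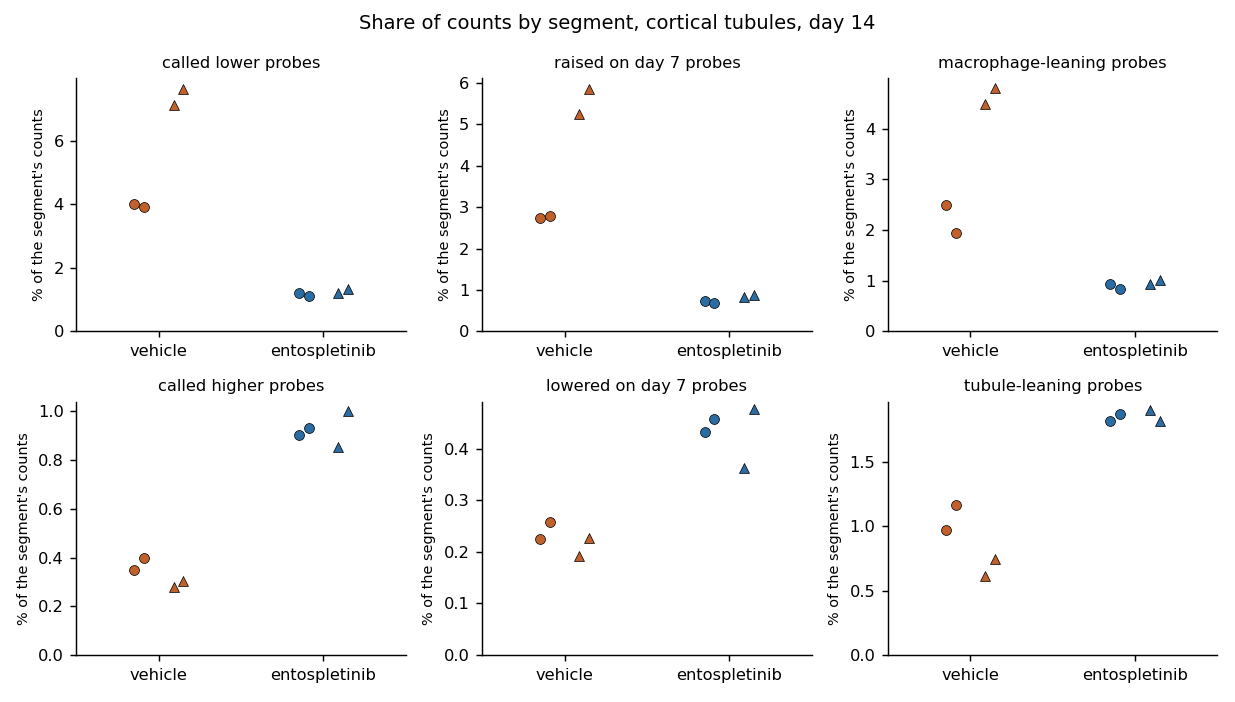
Percent of each segment's counts that fell on 6 sets of probes, for the 4 vehicle and 4 entospletinib segments of day 14 cortical tubules (circles, section 1; triangles, section 2; 1 point per segment). The groups do not overlap in any of the 6 panels, and the vehicle segments of section 2 lie farthest from the entospletinib segments in all but the lowered-on-day-7 panel, where the sections overlap.

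Probes with the smallest adjusted p in each direction, among those with segments that did not overlap, illustrate these changes. RTS0062101 had 112.5 and 156 CPM in the segments of vehicle section 1 and 324 and 388 CPM in those of vehicle section 2. In entospletinib segments it had 16.2, 12.6, 17.5, and 19.3 CPM. The lowest vehicle segment thus stood far above the highest entospletinib segment, and the vehicle sections differed clearly from each other. Its log2 fold change was -3.71 (SE 0.38, adjusted p = 0.00077, edgeR) and -2.87 without vehicle section 2. RTS0065857 had 67.5, 59.3, 88.7, and 52.7 CPM in vehicle segments. With entospletinib it had 16.4, 12.1, 14.7, and 15.2 CPM. Here the vehicle sections overlapped, and the groups were again apart. Its log2 fold change was -2.0 (SE 0.17, adjusted p = 0.00074, edgeR).

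Of the probes that rose, RTS0065414 had 16.6, 25.8, 18.5, and 20.5 CPM in vehicle segments. In entospletinib segments it had 56.2, 69.6, 52.4, and 63.4 CPM. Its log2 fold change was 1.72 (SE 0.23, adjusted p = 0.0034, edgeR), and the sections of a group overlapped. RTS0074198 changed less, from 32.7, 33.9, 28.6, and 30.3 CPM to 64.2, 52.2, 53.2, and 60.7 CPM, a log2 fold change of 1.06 (SE 0.13, adjusted p = 0.0022, edgeR). All 4 probes kept their direction without each section in turn, which their selection favors, but RTS0074198 lay close to the limit of 1 for the fold change. It dropped under that limit, and so was not called, without 1 of the entospletinib segments, without vehicle section 2 (0.97), with TMM scaling (0.85), with DESeq2 on sums (0.83) or on regions (0.83), and relative to the median of all probes (0.78).

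Over the course after IRI, the pair that fell had their highest vehicle levels late. In cortical tubules, RTS0062101 had 13.9 ± 2.95 CPM in controls (mean ± SD, n = 2 sections, as for the values that follow), 27.9 ± 4.05 in vehicle on day 1, 170 ± 7.81 on day 7, and 247 ± 155 on day 14. With entospletinib it had 30.2 ± 4.74 on day 1, 16.9 ± 3.29 on day 7, and 16.6 ± 2.85 on day 14. RTS0065857 followed a similar order, with 12.1 ± 2.54 CPM in controls, 22.6 ± 3.56, 64.2 ± 2.38, and 66.6 ± 5.39 in vehicle on days 1, 7, and 14, and 29.3 ± 0.431, 20.2 ± 1.43, and 14.7 ± 0.371 with entospletinib. For both, the vehicle levels of days 7 and 14 did not differ beyond the spread of their sections. RTS0065414 had 42.6 ± 7.34 CPM in controls, 42.6 ± 4.35, 29.6 ± 2.14, and 20.7 ± 1.67 in vehicle, and 33.4 ± 6.05, 46.2 ± 6.29, and 60.6 ± 2.49 with entospletinib. RTS0074198 had 44.4 ± 6.32 CPM in controls, 38.0 ± 0.839, 40.6 ± 4.23, and 31.4 ± 2.77 in vehicle, and 35.5 ± 3.69, 55.5 ± 3.06, and 58.1 ± 0.813 with entospletinib.

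**Figure D4:**
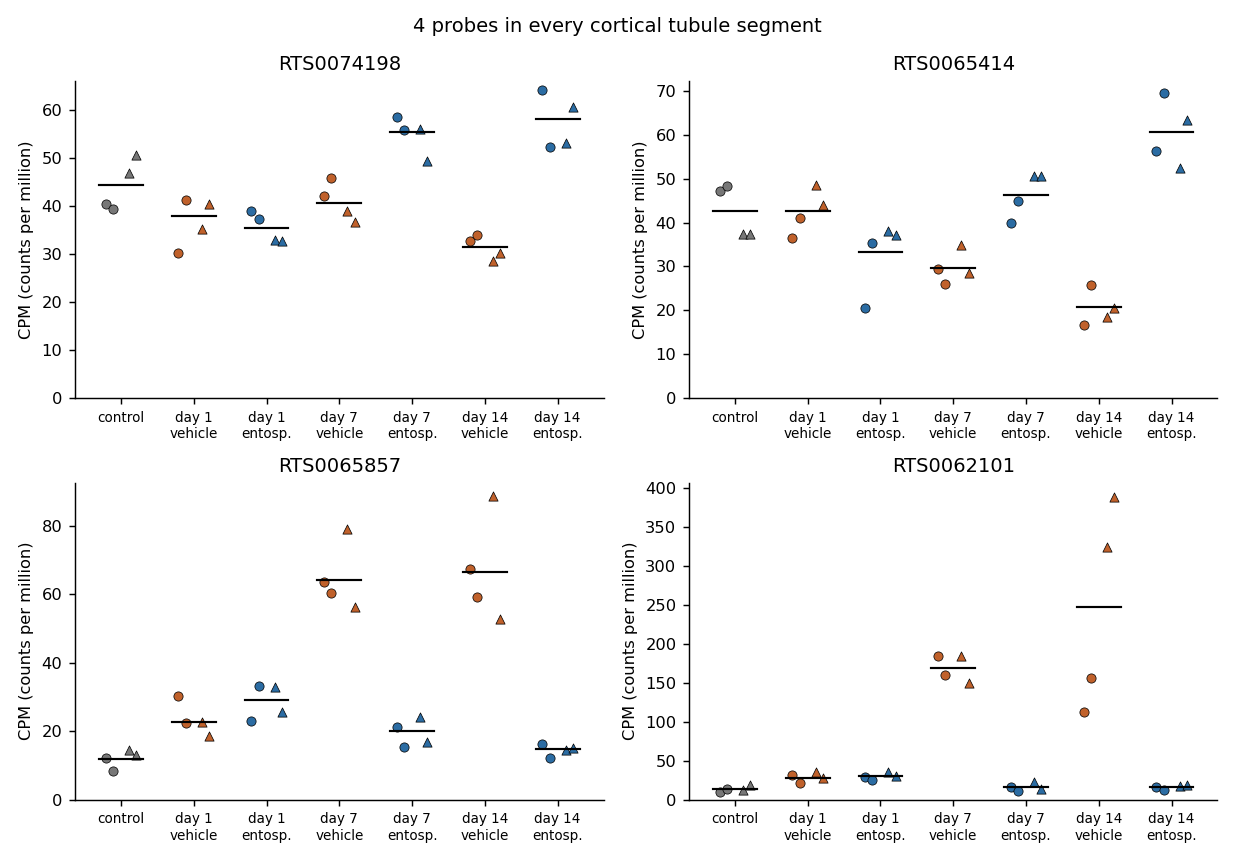
CPM of 4 probes in every cortical tubule segment used, by group (circles, section 1; triangles, section 2; bars, mean of the 2 section sums). On day 14 the entospletinib and vehicle segments do not overlap for any of the 4, and RTS0062101 reaches 388 CPM in vehicle section 2.

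The largest changes were seen in other probes, chosen here after their values were seen. The probe with the largest rise had 28.4, 34.8, 23.4, and 30.9 CPM in vehicle segments. With entospletinib it had 985, 1133, 357, and 1187 CPM, a log2 fold change of 5.16 (SE 0.81, adjusted p = 0.0070, edgeR). As section sums it stood at 1053 and 841 CPM with entospletinib on day 14, above the control sections at 209 and 496 CPM, and at 868 and 647 CPM with entospletinib on day 7. The probe with the largest fall had 275 and 102 CPM in the segments of vehicle section 1 and 436 and 373 CPM in those of vehicle section 2. In entospletinib segments it had 8.62, 11.6, 22.8, and 9.38 CPM, a log2 fold change of -4.34 (SE 0.75, adjusted p = 0.015, edgeR), beside 8.73 and 17.1 CPM in controls.

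Whether the changed probes were those of tubular injury was examined with a list from other sections. In tubules of vehicle-treated mice on day 7, 173 probes were higher and 26 lower than in controls, and these sections share no library with the day 14 comparison. On day 14 in the cortex, 129 of the 173 probes raised on day 7 were called lower with entospletinib (74.6% of the list, beside 1.6% of all probes) and none higher, and they made up 40.1% of the probes called lower. Their median log2 fold change was -1.63, beside 0.29 for all probes, and 172 of the 173 had a negative value. The 26 probes lowered on day 7 moved the other way, with 9 called higher (34.6% of the list, beside 0.337% of all probes), none lower, and a median of 1.01. Of the 173, 65 were called lower without vehicle section 2, 152 without vehicle section 1, 23 without entospletinib section 1, and 84 without entospletinib section 2. How many of the 26 were called higher also moved with the section left out, as did the number among all probes. Relative to all probes, the median of the 173 ranged from -2.40 to -1.22 in these fits and that of the 26 from 0.60 to 0.94.

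Raised-on-day-7 probes held 2.74% and 2.79% of the counts in the segments of vehicle section 1 and 5.26% and 5.86% in those of vehicle section 2. In entospletinib segments they held 0.740%, 0.687%, 0.825%, and 0.874%, beside 0.764% and 0.83% in the control sections. The entospletinib segments thus lay at the control level and well below every vehicle segment. The median level of the list was 24.9 and 31.6 CPM in the entospletinib sections, beside 26.3 and 21.7 CPM for all probes. Lowered-on-day-7 probes held 0.224%, 0.258%, 0.191%, and 0.227% in vehicle segments. They held 0.433%, 0.458%, 0.362%, and 0.476% in entospletinib segments, beside 0.458% and 0.536% in controls.

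Macrophage RNA within the tubular outlines was examined in the same way. Macrophage-leaning probes were the 338 that were higher in cortical macrophage segments (stained for IBA1) than in tubular segments of the 10 sections outside day 14, and tubule-leaning probes were the 38 that were lower there. Of the 338, 131 were called lower with entospletinib in cortical tubules (38.8% of the list, beside 1.6% of all probes) and none higher, with a median of -1.03. They made up 40.7% of the probes called lower. Of the 38 tubule-leaning probes 1 was called higher (2.63% of the list, beside 0.337% of all probes) and none lower. A positive value was seen in 36 of the 38, with a median of 0.90, beside 14550 of 20175 and 0.29 for all probes. Without vehicle section 2, 32 of the 338 were called lower. Without vehicle section 1 they were 227, without entospletinib section 1 they were 11, and without entospletinib section 2 they were 49. Relative to all probes, their median was -1.32, and -0.59 without vehicle section 2. The number of tubule-leaning probes called higher moved with the section left out, as did that of all probes. Their median relative to all probes was 0.61, and 0.35 to 0.95 without each section in turn, the lowest without entospletinib section 2.

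In tubular segments, the macrophage-leaning probes held 2.5% and 1.93% of the counts in vehicle section 1, 4.49% and 4.79% in vehicle section 2, and 0.925%, 0.843%, 0.926%, and 1.01% in entospletinib segments. Control sections held 0.788% and 0.958%. The tubule-leaning probes held 0.970%, 1.16%, 0.610%, and 0.744% of the counts in vehicle segments. They held 1.82%, 1.88%, 1.90%, and 1.82% in entospletinib segments, beside 1.72% and 1.34% in controls. Macrophage-leaning counts were thus highest and tubule-leaning counts lowest in vehicle section 2, the section that stood apart. The part of macrophage RNA in the other changes was not tested. The macrophage-leaning list shared 52 probes with that raised on day 7. Of the 322 probes called lower, 48 were in both lists, with a median of -2.11, 81 only among those raised on day 7, with -1.77, 83 only among the macrophage-leaning, with -1.42, and 110 in neither, with -1.27. The lists hold only probes past a limit of 1 on the log2 scale. By sign alone, 262 of the 322 probes called lower were higher in macrophage than in tubular segments outside day 14, with a median of 0.79, beside 6902 of the 19785 probes not called, with a median of -0.09. Among the 4 named probes, none was on the macrophage-leaning list, but RTS0065857 was higher in macrophage segments (log2 fold change 0.51, adjusted p = 0.026, edgeR). The pair that fell had been raised on day 7.

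Position within the kidney was examined with probes that differed between medullary and cortical tubules outside day 14. The 79 cortex-leaning probes had a median log2 fold change of 0.89 with entospletinib in the cortex, with 73 positive values, beside 0.29 and 14550 of 20175 for all probes. Of the 79, 1 was called higher (1.27% of the list, beside 0.337% of all probes). This number moved with the section left out, as did that of all probes. The 21 medulla-leaning probes had a median of -0.41, and 3 were called lower (14.3% of the list, beside 1.6% of all probes), a count of 1 to 7 without each section in turn. Relative to all probes, the median of the medulla-leaning probes moved from -0.69 to -0.34 without vehicle section 2 and to -1.08 without vehicle section 1. That of the cortex-leaning probes was 0.60, and 0.44 to 1.03 without each section in turn, the highest without vehicle section 1. Cortex-leaning probes held 3.90% and 3.70% of the counts in the segments of vehicle section 1 and 1.74% and 2.11% in those of vehicle section 2. In entospletinib segments they held 5.63%, 6.03%, 5.49%, and 3.95%. The groups did not overlap, although the highest vehicle and lowest entospletinib segment were close. Medulla-leaning probes held 0.202%, 0.155%, 0.277%, and 0.302% of the counts in vehicle segments and 0.137%, 0.127%, 0.111%, and 0.201% in entospletinib segments, and here the groups overlapped.

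**Figure D5:**
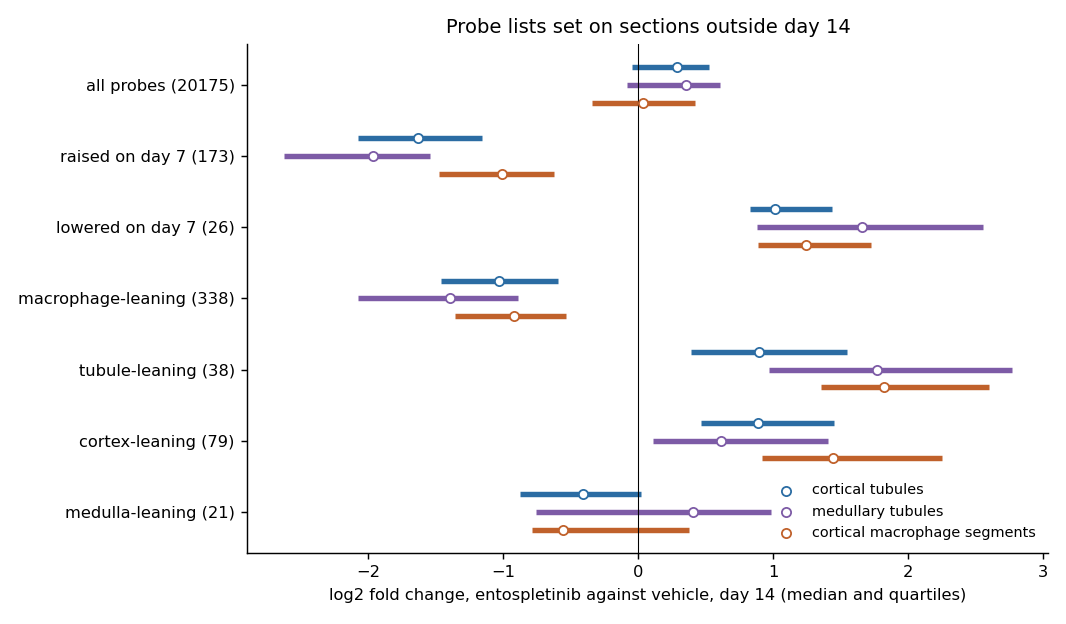
Log2 fold change of entospletinib against vehicle on day 14 for all probes and for 6 probe lists drawn from sections outside day 14 (circles, median; bars, quartiles; number of probes in brackets), in cortical tubules, medullary tubules, and cortical macrophage segments. Probes raised on day 7 and macrophage-leaning probes have negative medians in all 3 kinds of segment, and probes lowered on day 7, tubule-leaning, and cortex-leaning probes have positive medians in all 3.

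Against uninjured controls, vehicle-treated cortical tubules had 471 probes called higher (2.33%) and 125 called lower (0.62%) on day 14, a split that became 784 and 50 with TMM scaling. Without vehicle section 2 the counts were 146 and 1, without vehicle section 1 they were 822 and 4036, without control section 1 they were 24 and 1, and without control section 2 they were 337 and 296. Entospletinib-treated cortical tubules had no probe called in either direction by edgeR against the same controls, with 262 probes (1.30%) at an unadjusted p under 0.05. That share is below the 0.05 expected with no difference at all, and the uncalled log2 fold changes ran from -2.65 to 9.92. TMM scaling called 0 and DESeq2 on the same sums called 1, and without control section 2 the count was 3. These comparisons share sections with that of entospletinib against vehicle, so only their own values are set side by side. The 322 probes called lower with entospletinib had medians of 1.58 for vehicle against control and 0.09 for entospletinib against control. The 68 called higher had medians of -1.09 and 0.20. For RTS0062101 the log2 fold changes were 3.97 (SE 0.39) for vehicle and 0.26 (SE 0.37) for entospletinib, and for RTS0065857 they were 2.28 (SE 0.18) and 0.28 (SE 0.18). For RTS0065414 they were -1.23 (SE 0.23) and 0.49 (SE 0.22), and for RTS0074198 they were -0.68 (SE 0.13) and 0.38 (SE 0.13). Absence of a call does not show that entospletinib-treated tubules equalled controls, since each difference rests on 2 sections per group. The spread behind its interval was estimated over all 14 cortical tubule sums, vehicle section 2 among them. Entospletinib against control was not refitted without that section.

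In medullary tubules of the same sections, more probes were called, in a separate fit with its own estimate of the spread. Entospletinib against vehicle called 828 probes higher (4.1%) and 852 lower (4.22%) there, a split that became 403 and 1416 with TMM scaling. The counts were 426 and 713 without vehicle section 2, 1794 and 809 without vehicle section 1, 399 and 506 without entospletinib section 2, and 658 and 683 without entospletinib section 1. Of the 322 probes called lower in the cortex, 275 were called lower in the medulla and 318 had a negative value, with a median of -1.82. Of the 68 called higher in the cortex, 39 were called higher in the medulla, with a median of 1.90 and no negative value. The difference of the effect between the regions, tested with the section in the model, was called for 117 probes (0.58%), 50 more positive and 67 more negative in the medulla. Among these were 9 of the 322 and 3 of the 68. Without each section of the day 14 groups in turn, the 117 became 19 to 387, the highest without vehicle section 2. For RTS0065414 the log2 fold change was 2.79 (SE 0.33) in the medulla, and its difference from the cortex was 1.07 (SE 0.27), which missed the threshold (adjusted p = 0.085, edgeR). For RTS0062101 it was -3.81 (SE 0.40), and the difference was -0.23 (SE 0.30, adjusted p = 1.00, edgeR). RTS0065857 had -2.05 (SE 0.28) and RTS0074198 had 1.80 (SE 0.31) in the medulla, and neither difference passed the threshold.

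The cortical effect on day 14 was also set against the earlier days. No probe passed the threshold for a difference between days 14 and 7 by edgeR, with 789 probes (3.91%) at an unadjusted p under 0.05. TMM scaling called 1 probe and DESeq2 3, and without vehicle section 1 of day 14 the count was 106. Against day 1, 27 probes differed (0.134%), 2 more positive and 25 more negative on day 14. These differences contain the day 14 effect by which the 322 and 68 were called. TMM scaling called 121 and DESeq2 520. The count was 0 without entospletinib section 1, 4 without entospletinib section 2, 4353 without vehicle section 1, and 27 without vehicle section 2 of day 14. Leaving out a section of the day 1 groups gave 0 to 71. The named probes were chosen for their day 14 effect, which favors a difference from day 1. That difference was -3.82 (SE 0.50, adjusted p = 0.022, edgeR) for RTS0062101 and -2.37 (SE 0.24, adjusted p = 0.0049, edgeR) for RTS0065857. It was 2.07 (SE 0.31, adjusted p = 0.030, edgeR) for RTS0065414 and 1.17 (SE 0.19, adjusted p = 0.037, edgeR) for RTS0074198.

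In macrophage segments of the same cortical regions, 13172 probes passed the filter on low counts. Of these, 450 were called higher (3.42%) and 254 lower (1.93%) with entospletinib. The counts were 255 and 143 without vehicle section 2 and 156 and 174 without entospletinib section 2. Depth differed widely there, with 378678 to 947255 counts in vehicle and 78371 to 189606 in entospletinib segments. Of the 322 probes called lower in tubules, 315 were tested in macrophage segments, where 113 were called lower with a median of -1.04. Of the 68 called higher, 53 were tested and 34 were called higher, with a median of 1.60. The 15 probes of the 68 that did not pass the filter leave these counts partial. RTS0062101 fell there too (log2 fold change -2.02, SE 0.40, adjusted p = 0.00036, edgeR). RTS0065857 had -0.50 (SE 0.44), RTS0065414 had 1.63 (SE 0.54), and RTS0074198 had 0.48 (SE 0.50), none past the threshold. Whether tubular RNA in macrophage segments, or macrophage RNA in tubular segments, gave such shared changes was not tested.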

How the data were processed

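The authors deposited whole UMI counts per probe for 94 segments, made with the GeoMx NGS Pipeline (2.2 by the deposited description, 1.1 by the labels, 3.1.1.5 by the headers). The deposited counts of 13 segments, whose unit was entered as other for want of a column name, are whole counts too. These counts precede the authors' background evaluation, probe aggregation, filtering, and upper quartile normalization, and no gene names accompany them. The study tested regions as replicates with DESeq2 after removing 2 outliers that it does not name.

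Tubular segments under 200000 counts were left out. Macrophage segments were kept at any total, down to 16693 counts, in their comparison and in the macrophage- and tubule-leaning lists. Counts were summed by section. The 14 cortical tubule sums entered one edgeR fit (version 4.0.16, R 4.3.3, quasi-likelihood, robust) after filterByExpr (minimum count 10, minimum total 15) and upper quartile scaling. Standard errors were the size of the log2 fold change over the root of F. For differences of 2 effects a call needed the adjusted p only. CPM is per total counts of a segment or sum. Principal components used log2 CPM with a prior of 2, and fold changes between pairs of sections an offset of 0.5. Probe lists came from the same test on sections outside day 14, in cortical macrophage against tubular segments, medullary against cortical tubules, and day 7 vehicle against control tubules (both regions summed). The 2 probes in each direction with the smallest adjusted p, among called probes without overlap of segments, are named. The members, lists, and tests were chosen with earlier results of these data known. DESeq2 (version 1.42.0), limma-voom (version 3.58.1), TMM, other filters, leaving out sections or segments, and thinning to 4582780 counts were alternatives. The tests were also run on simulated data. That simulation had 1 spread for all probes and no shift between sections, so it cannot speak to a section that stands apart.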

Additional observations from a re-analysis of the deposited data

Results flagged for a closer look

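The effect of entospletinib on day 14 differed between medullary and cortical tubules for 117 probes and, within the cortex, between days 14 and 1 for 27 probes, both by tests of the difference itself. The 27 included the 4 named probes, which were chosen for their day 14 effect, with a difference of 1.17 on the log2 scale for RTS0074198, 2.07 for RTS0065414, -2.37 for RTS0065857, and -3.82 for RTS0062101.

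Of 58 groups of 4 segments examined for a value far from the other 3, 3 held one, and chance gives about 1 in 20. The first was a vehicle segment of section 1 on day 14 with 2355614 counts, beside 3079326 to 3218840 in the others. The next was RTS0065414 in a segment of section 1 with entospletinib on day 1, at 20.5 CPM beside 35.3 to 38.2 CPM. The last was the probe with the third steepest fall, at 17.9 CPM in an entospletinib segment of section 2 on day 14, beside 13.3 to 13.8 CPM.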

How the results depend on the processing

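Each group had 2 sections, so the numbers of probes called moved widely. Beside 390 probes called for entospletinib against vehicle, TMM scaling gave 614, DESeq2 on the section sums 730, DESeq2 with regions as replicates 879, and limma-voom with the section as a random effect 690. Leaving out a section gave 43 to 4688 and leaving out a segment 305 to 678, the highest without the second vehicle segment of section 1. The other settings gave 310 to 549, and 8 of 12 settings that left out no library stayed within 1.5 times. Among these, dropping the filter on low counts could change nothing, since all 20175 probes passed it. Centring on the median of all probes shifted the fold changes only and kept the adjusted p. With the label prefix as a replicate block, 549 were called, 154 higher and 395 lower, and 388 of the 390 were among them. Deviations between prefixes correlated at 0.645 between the day 14 groups, at 0.152 to 0.646 between all pairs of injured groups, and at -0.52 to 0.011 between controls and injured groups. Region numbers in the labels run in 1 series through all groups within each prefix. The labels do not say in words what the sections of a prefix share, and the main test did not pair them. Beside 596 for vehicle against control, DESeq2 gave 973 and leaving out a section 25 to 4858. Beside 0 for entospletinib against control, DESeq2 gave 1 and leaving out a section 0 to 3. For the difference between days 14 and 7, TMM gave 1, DESeq2 3, and leaving out a section 0 to 106. Beside 27 for that between days 14 and 1, TMM gave 121, DESeq2 520, and leaving out a section 0 to 4353. Beside 117 for the difference between regions, leaving out a section gave 19 to 387, beside 1680 for medullary tubules 905 to 2603, and beside 704 for macrophage segments 330 to 582. The cause of these moves was not tested. The 4 named probes kept their direction in each of the 24 alternatives, which their selection from these same counts favors. Their log2 fold changes were 0.78 to 1.16 for RTS0074198, 1.44 to 1.91 for RTS0065414, -2.29 to -1.82 for RTS0065857, and -4.23 to -2.87 for RTS0062101. Thinning to a single total gave 418 calls. Thinning, centring on the median of all probes, DESeq2 for differences between days, and all alternatives for the medulla and macrophage segments were added after the data were seen.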
